A study of Mus musculus with 12 samples.

Results

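Proteasome genes were described in mouse eWAT, the epididymal white fat of the abdomen, 1 h after an injection of epinephrine or saline. A gene belonged to the set where its symbol began with Psm, continued with a letter from a to g and went on with a number, pseudogenes left out. Of the 27179 genes in the count table, 50 fitted this rule. Among them, 48 code for subunits, activators, an inhibitor or assembly chaperones of the proteasome, and 2 (Psmc3ip and Psme3ip1) are named after a subunit that their protein binds. RNA was sequenced from 12 male C57BL/6J mice on chow. The epinephrine group was 6 mice given 0.5 mg/kg of the hormone into the peritoneum, and the vehicle group was 6 mice given the same volume of saline. The labels list ages of 18 to 23 weeks for the epinephrine mice and 12 to 17 weeks for the vehicle mice, rising by exactly 1 week from each mouse to the next. Whether these are true ages or an artefact of how the labels were filled in could not be checked, and if they are true, age and treatment cannot be told apart. Libraries carry the name of their group and their replicate number, such as epinephrine 1.

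The proteasome breaks down proteins that carry a chain of ubiquitin. Its barrel-shaped core, called 20S, is built of alpha subunits, which form the gate, and beta subunits, which hold the cutting sites. A cap, called 19S, binds the ubiquitin chain, removes it and threads the unfolded protein into the barrel. In cells exposed to interferon-gamma, and in many leukocytes at rest, the beta subunits Psmb8, Psmb9 and Psmb10 take the place of Psmb5, Psmb6 and Psmb7 and form the immunoproteasome, which favours peptides that fit MHC class I. In cultured cells, hormones that raise cyclic AMP, epinephrine among them, are known to increase proteasome activity through phosphorylation of the 19S lid subunit Psmd11, a step on the protein that RNA levels do not measure.

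The libraries held between 24821601 and 34405433 counts. The tissue label was checked against 12 adipocyte markers, whose summed level ranged from 22893 to 56045 CPM (counts scaled to the size of the library) in epinephrine libraries and from 18225 to 58629 CPM in vehicle libraries. The lowest adipocyte sums were in epinephrine 1, epinephrine 2 and vehicle 2. In these 3 libraries Gpx5, a secreted glutathione peroxidase of the epididymis, took between 0.93% and 1.98% of counts, and at most 0.398% in any other library. The summed CPM of 20 epididymis and testis markers spanned 104 to 35444 in epinephrine libraries and 41.6 to 52464 in vehicle libraries, and 0 of the 20 passed the test. Results whose call turned on these 3 libraries are given with and without them.

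Of the 50 genes, 48 passed the filter on low counts. The other two were Psma8, an alpha subunit made mainly in the testis, with 8 to 12 reads in epinephrine libraries and 4 to 12 in vehicle libraries, and Psmb11, the beta subunit of the thymus, with at most 1 read in any library. Across the 48 tested genes, 0 were higher and 1 was lower with epinephrine at an adjusted p under 0.05 (edgeR's quasi-likelihood test, adjusted over 16175 genes), against 2.65% of all tested genes higher and 3.58% lower. The gene called lower was Psmg3, an assembly chaperone. At an unadjusted p under 0.05 there were 4 members, 2 higher (Psmd8 and Psmd12) and 2 lower (Psmg3 and Psmb9), or 8.33% of the 48, against 17.2% of all tested genes. No member had every epinephrine library above every vehicle library, and 1 member had every one below, where 2.04% and 2.74% of all tested genes did so.

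The small number of calls went with narrow intervals. The median log2 fold change was 0.04 over the 48 genes and -0.00059 over all tested genes, and the median size of a change was 0.07 over the members and 0.15 over all genes (log2 scale). The median standard error was 0.08 on the log2 scale for members and 0.18 for all genes. For 43 of the 48 (89.6%) the 95% interval of the fold change lay within 1.5-fold in either direction, against 50.9% of all tested genes. For 26 (54.2%) it lay within 1.2-fold, against 15.2%. Intervals were about as narrow in 23 genes that work with the proteasome under other names, with 87.0% within 1.5-fold and 52.2% within 1.2-fold. Genes of like level were not compared. The coefficient of variation between animals was taken over the 46 tested genes other than Psmc3ip and Psme3ip1. Its median was 7.97% in epinephrine libraries and 9.08% in vehicle libraries, where all tested genes had medians of 20.6% and 19.7%. In bulk tissue, fewer cells of a type and less RNA per cell cannot be told apart.

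**Figure D1:**
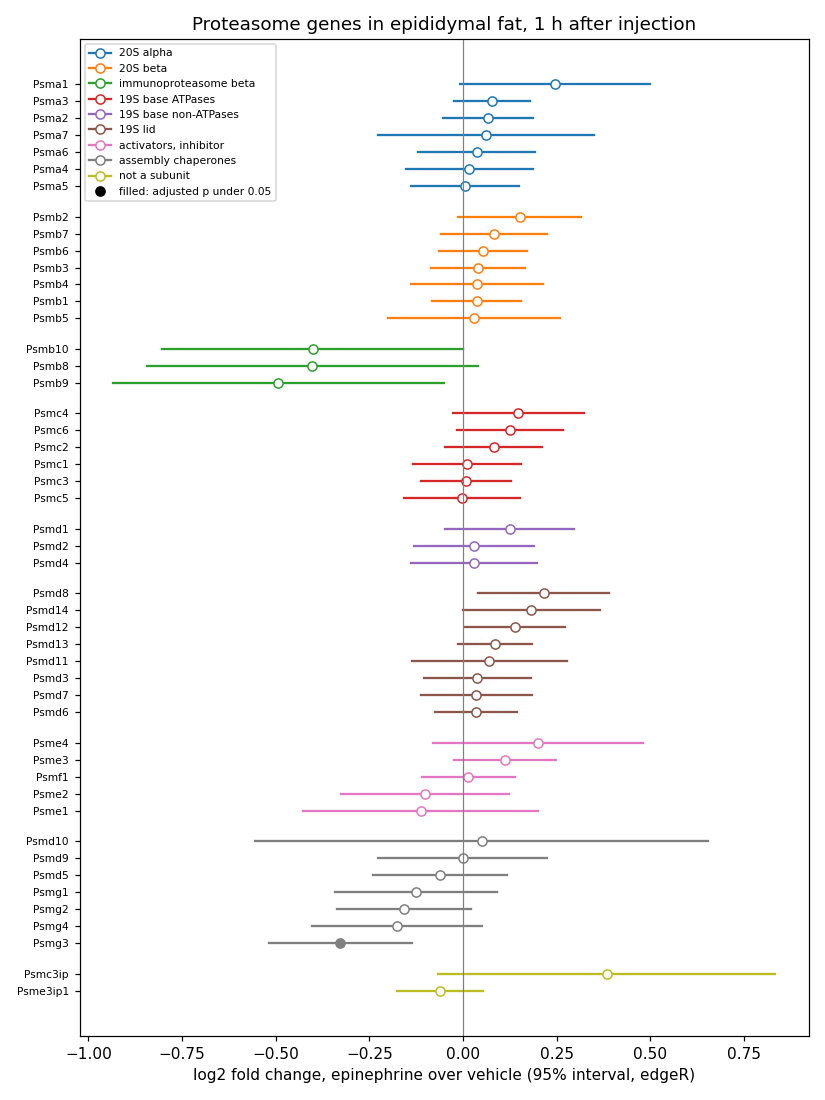
Log2 fold change of each tested proteasome gene, epinephrine over vehicle, with its 95% interval from edgeR, ordered by role from the 20S alpha subunits at the top to the genes that are not subunits at the bottom. Most intervals of the 20S and 19S subunits are short and span 0, the 3 immunoproteasome genes lie left of 0, and the filled point is Psmg3.

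Levels were compared between genes as RPKM, the CPM of a gene divided by its length in kilobases. Over the 46 tested genes other than Psmc3ip and Psme3ip1, mean RPKM ran from 6.72 to 121 in epinephrine libraries and from 8.44 (Psmg3) to 117 (Psmb4) in vehicle libraries. The highest levels were those of core subunits. Psma7, an alpha subunit, averaged 121 ± 23.1 RPKM with epinephrine and 116 ± 17.4 RPKM with vehicle, and Psmb4, a structural beta subunit, averaged 120 ± 5.36 RPKM with epinephrine and 117 ± 15.4 RPKM with vehicle (SD, n = 6 each). These 2 genes did not differ beyond their spread. The median gene stood at 83.4 RPKM with epinephrine and 78.1 RPKM with vehicle among alpha subunits, at 94.0 RPKM with epinephrine and 90.6 RPKM with vehicle among constitutive beta subunits, and at 62.2 RPKM with epinephrine and 59.6 RPKM with vehicle among 19S ATPases. Immunoproteasome genes were lower, with a median of 24.8 RPKM with epinephrine and 32.7 RPKM with vehicle. The assembly chaperones, which help to build the particle and then leave it, had a median of 13.8 RPKM with epinephrine and 14.8 RPKM with vehicle.

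**Figure D2:**
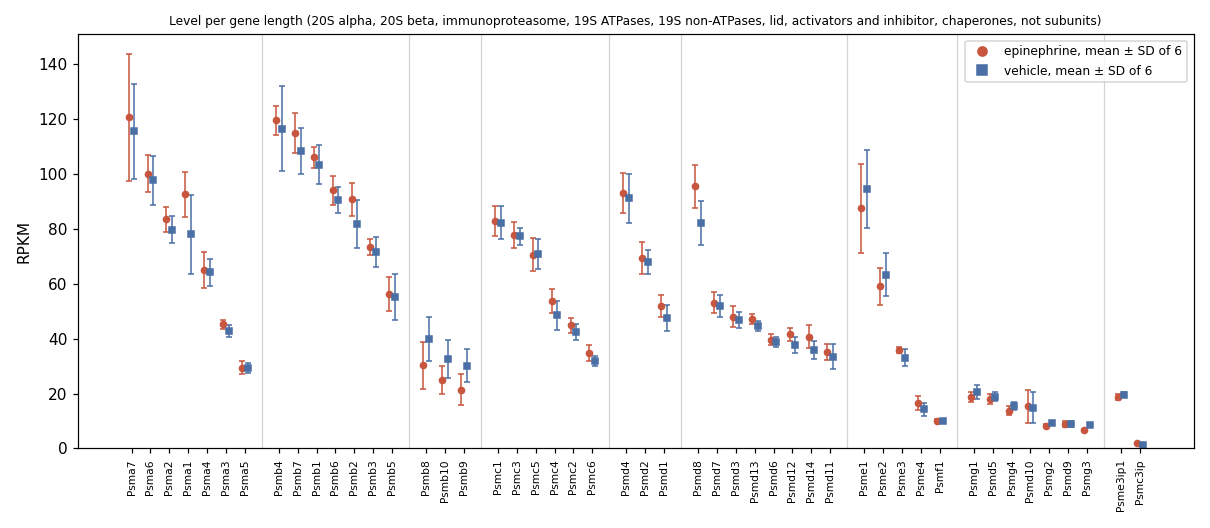
Mean RPKM with SD over 6 libraries for each tested gene, epinephrine as circles on the left and vehicle as squares on the right of each pair, grouped by role. Core subunits reach 121 RPKM, while the chaperone Psmg3 lies at 6.72 RPKM with epinephrine and 8.44 RPKM with vehicle.

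The alpha subunits form the outer rings of the core. Of the 7 tested, 0 passed the test, and all 7 log2 fold changes were above 0, from 0.01 to 0.24. Psma1, which had the largest, ranged over 96.6, 120 and 125 CPM (lowest, median and highest) in epinephrine libraries and 80.5, 90.9 and 124 CPM in vehicle libraries. Its groups overlapped, since epinephrine 1 was at 96.6 CPM and vehicle 5 at 124 CPM. The log2 fold change of Psma1 was 0.24 (SE 0.12, 95% interval -0.01 to 0.50, edgeR adjusted p = 0.313). Psma3 was the most even of the named alpha subunits, with 60.8, 65.7 and 66.9 CPM in epinephrine libraries against 57.0, 61.4 and 65.9 CPM in vehicle libraries, and a log2 fold change of 0.08 (SE 0.05, edgeR adjusted p = 0.473). Psma2 and Psma6 had log2 fold changes of 0.07 and 0.04, and the intervals of Psma4 and Psma5 stayed within -0.15 to 0.19. Psma7 was uneven between animals, from 88.3 to 143 CPM with epinephrine and from 87.8 to 129 CPM with vehicle, and its highest libraries were epinephrine 1 and vehicle 2.

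The constitutive beta subunits behaved in the same even way, with 0 of 7 past the test and log2 fold changes from 0.03 to 0.15. Psmb5, which carries the chymotrypsin-like site, ranged over 42.1, 47.3 and 57.8 CPM in epinephrine libraries and 42.0, 45.7 and 62.0 CPM in vehicle libraries. Psmb6, with the caspase-like site, had 91.4, 95.8 and 106 CPM in epinephrine libraries and 88.1, 92.9 and 99.4 CPM in vehicle libraries. Psmb7, with the trypsin-like site, had 99.7, 112 and 121 CPM in epinephrine libraries and 97.6, 103 and 117 CPM in vehicle libraries. In all 3 genes the groups covered nearly the same range, and the log2 fold changes were 0.03 (95% interval -0.20 to 0.26) for Psmb5, 0.05 (-0.06 to 0.17) for Psmb6 and 0.08 (-0.06 to 0.22) for Psmb7. Psmb2 had the largest value of this group, a log2 fold change of 0.15 (SE 0.07, edgeR adjusted p = 0.342), and Psmb1, Psmb3 and Psmb4 had 0.04 each. For 6 of the 7, all but Psmb2, the interval lay within 1.2-fold.

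The inducible counterparts stood apart from these in direction. The promoters of the 3 immunoproteasome genes and of Psmg3, the gene called lower, are shown because the results turn on them. They are the 250 bases before and 50 bases after each gene's start in RefSeq (GRCm38.p6), printed on the gene's strand in lower case, with capitals for every match to the motifs named after them.
Psmb8, chr17:34197945-34198244, plus strand: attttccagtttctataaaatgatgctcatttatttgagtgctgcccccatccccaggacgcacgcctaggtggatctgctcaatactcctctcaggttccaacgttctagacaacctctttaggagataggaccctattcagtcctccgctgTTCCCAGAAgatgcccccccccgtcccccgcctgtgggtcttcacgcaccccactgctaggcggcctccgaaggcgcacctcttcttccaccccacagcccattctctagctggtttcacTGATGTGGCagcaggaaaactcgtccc
Psmb9, chr17:34187281-34187580, minus strand: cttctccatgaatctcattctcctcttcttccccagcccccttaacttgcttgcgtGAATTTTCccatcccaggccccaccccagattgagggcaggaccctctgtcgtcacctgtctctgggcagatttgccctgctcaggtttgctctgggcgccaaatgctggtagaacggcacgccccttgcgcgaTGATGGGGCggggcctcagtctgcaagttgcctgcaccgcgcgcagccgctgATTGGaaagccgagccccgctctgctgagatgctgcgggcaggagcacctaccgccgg
Psmb10, chr8:105938343-105938642, minus strand: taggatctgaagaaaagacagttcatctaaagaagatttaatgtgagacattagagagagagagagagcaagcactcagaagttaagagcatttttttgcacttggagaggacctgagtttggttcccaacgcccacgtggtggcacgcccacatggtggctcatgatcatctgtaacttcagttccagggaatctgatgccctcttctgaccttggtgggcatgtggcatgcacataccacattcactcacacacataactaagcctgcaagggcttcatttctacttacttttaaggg
Psmg3, chr5:139826845-139827144, minus strand: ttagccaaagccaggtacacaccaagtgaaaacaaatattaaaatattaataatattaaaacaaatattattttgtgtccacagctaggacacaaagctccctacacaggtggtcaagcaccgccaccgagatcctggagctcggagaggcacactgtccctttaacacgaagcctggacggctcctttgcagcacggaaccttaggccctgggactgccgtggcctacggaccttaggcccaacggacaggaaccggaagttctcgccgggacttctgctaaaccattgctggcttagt

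A promoter entry was found for 40 of the 48 subunit, activator, inhibitor and chaperone genes. Motifs were searched on both strands of each window, and matches may overlap. The capitals in Psmb8 are a GAS match (TTCNNNGAA, read by STAT factors) and a match to the antioxidant-type core TGANNNNGC, those in Psmb9 are a heat shock type match (GAANNTTC), TGANNNNGC and the NF-Y box CCAAT read on the other strand, and Psmb10 and Psmg3 held no match. The antioxidant-type core was in 57.5% of the 40 promoter sets and in 45% of all 27025 genes with an entry, the NF-Y box in 35% and 41.1%, GAS in 7.5% and 9.55%, and the heat shock pair GAANNTTC and TTCNNGAA in 7.5% and 5% of members against 9.04% and 9.6% of all genes. The interferon response element known as ISRE was in 12.5% of members and 3.99% of all genes, and its 5 holders were Psmb3, Psmd4, Psme1, Psmd9 and Psmg4. The cyclic AMP response element TGACGTCA was in 0 of the 40 and in 2.03% of all genes. A match is a description of letters and not of binding.

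The 3 tested immunoproteasome genes all had negative fold changes, and none passed the test with all 12 libraries. Psmb8, the inducible form of Psmb5, ranged over 22.5, 37.8 and 53.3 CPM in epinephrine libraries and 29.7, 51.9 and 56.0 CPM in vehicle libraries. Its lowest libraries were epinephrine 1, epinephrine 2 and vehicle 2, and epinephrine 6 lay inside the range of the higher vehicle libraries. The log2 fold change of Psmb8 was -0.40 (SE 0.20, 95% interval -0.84 to 0.04, edgeR adjusted p = 0.348). Psmb9, the inducible form of Psmb6, ranged over 9.56, 17.5 and 23.7 CPM in epinephrine libraries and 15.5, 25.2 and 29.4 CPM in vehicle libraries. Its log2 fold change was -0.49 (SE 0.20, 95% interval -0.94 to -0.05, unadjusted p = 0.0319, edgeR adjusted p = 0.223). The groups overlapped through epinephrine 6, the highest of its group, and vehicle 2, the lowest of its group. Psmb10, the inducible form of Psmb7, ranged over 20.6, 34.4 and 37.0 CPM in epinephrine libraries and 24.0, 45.1 and 47.3 CPM in vehicle libraries. Its log2 fold change was -0.40 (SE 0.18, 95% interval -0.80 to 0.00034, edgeR adjusted p = 0.290). Without vehicle 2, every epinephrine library would lie below every vehicle library, since the other 5 vehicle libraries started at 41.1 CPM.

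**Figure D3:**
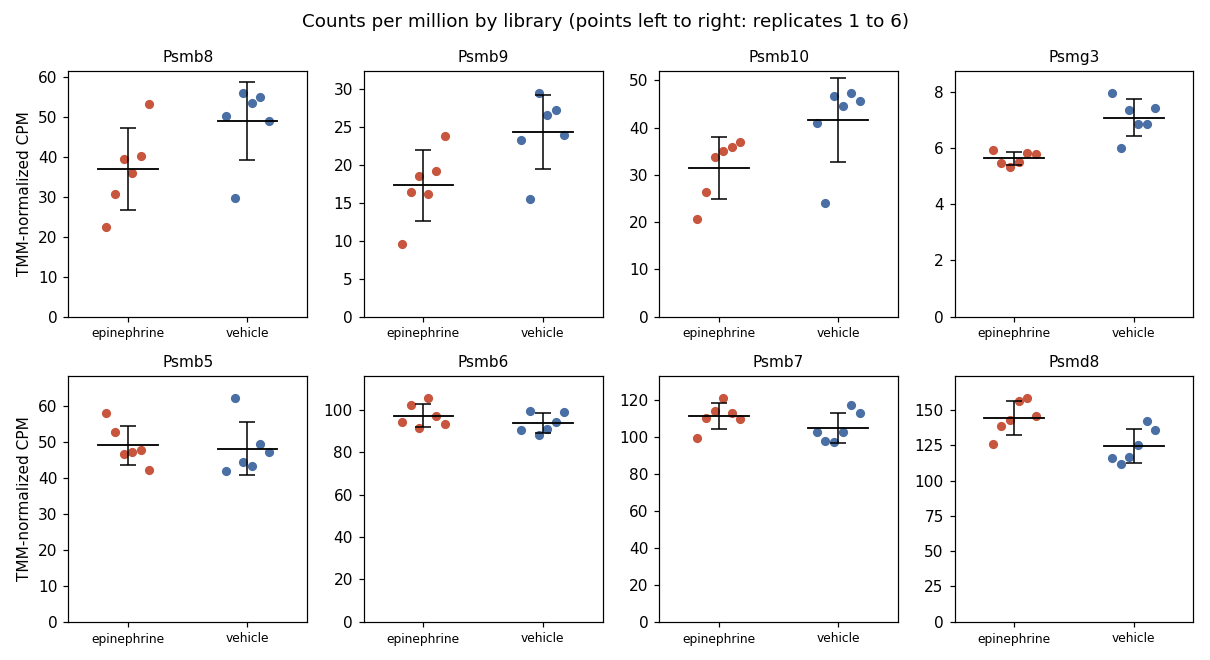
TMM-normalized CPM in each library, epinephrine left and vehicle right in each panel, with replicates 1 to 6 from left to right and the mean with SD in black. Psmb8, Psmb9 and Psmb10 (upper row) are lower in most epinephrine libraries than in the vehicle libraries other than vehicle 2, and Psmb5, Psmb6 and Psmb7 below them are level.

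Seen as pairs, the inducible form took a smaller part of each pair's summed RPKM in most epinephrine libraries. Psmb8 made up 34.8% ± 8.69 of the Psmb8 and Psmb5 pair with epinephrine and 42.1% ± 8.35 with vehicle (SD, n = 6 each). The groups overlapped, from 21.7% to 47.4% with epinephrine and from 25.4% to 47.3% with vehicle. Psmb9 made up 18.4% ± 4.48 of its pair with Psmb6 with epinephrine and 24.9% ± 4.58 with vehicle. These groups overlapped too, from 11.5% to 24.6% with epinephrine and from 16.7% to 30.1% with vehicle. Psmb10 made up 17.6% ± 2.58 of its pair with Psmb7 with epinephrine and 23.0% ± 3.75 with vehicle. For this last pair the epinephrine libraries ran from 13.6% to 20.4%, and vehicle 2 had 15.8% while every other vehicle library had at least 23.4%. Epinephrine 1 was the lowest epinephrine library and vehicle 2 the lowest vehicle library in all 3 pairs. In the Psmb8 pair, Psmb5 was also the highest of its group there, at 66.4 RPKM in epinephrine 1 and 71.2 RPKM in vehicle 2.

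The calls on these genes turned on the 3 libraries with much Gpx5. Without epinephrine 1, epinephrine 2 and vehicle 2, 0 members were higher and 3 were lower (Psmb9, Psmb10 and Psmg3), where 4.87% of all tested genes were higher and 6.37% lower. Among the 4 epinephrine and 5 vehicle libraries left, Psmb10 ran from 33.8 to 37.0 CPM with epinephrine and from 41.1 to 47.3 CPM with vehicle, and its log2 fold change was -0.34 (edgeR adjusted p = 0.00423). These ranges did not overlap. Psmb9 had 16.2 to 23.7 CPM with epinephrine and 23.3 to 29.4 CPM with vehicle, and a log2 fold change of -0.42 (edgeR adjusted p = 0.0461). Psmb8 did not pass there either (36.1 to 53.3 CPM with epinephrine, 49.1 to 56.0 CPM with vehicle, log2 fold change -0.32, edgeR adjusted p = 0.0941). Leaving out vehicle 2 alone also brought Psmb10 past the threshold (edgeR adjusted p = 0.0480). The log2 fold change of Psmb10 was -0.45 among the mice numbered 1 to 3 alone (edgeR adjusted p = 0.804), a fit in which 0 of 16709 genes passed in either direction, and -0.35 among those numbered 4 to 6 alone (adjusted p = 0.0168). These values do not show a difference between the sets of mice.

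Leukocyte content was read from 16 marker genes, since leukocytes are rich in immunoproteasome. None was at 0 in any library, and 0 of the 16 passed the test, but 12 of the 16 log2 fold changes were negative, with a median of -0.13. The markers of T cells and natural killer cells on the list had log2 fold changes of -0.39 (Cd3e, SE 0.26), -0.39 (Cd3g, SE 0.18), -0.38 (Cd8a, SE 0.43) and -0.37 (Nkg7, SE 0.33), and Coro1a, an actin-binding protein of leukocytes, had -0.47 (SE 0.26), the lowest of the 16. These are about as large as the log2 fold change of Psmb10, -0.40. Cd3g had an unadjusted p of 0.0463 (edgeR adjusted p = 0.278), the only one of the 16 under 0.05. Without the 3 libraries with much Gpx5, Cd3e was at -0.39, Cd3g at -0.46, Cd8a at -0.20, Nkg7 at -0.26 and Coro1a at -0.37. Abundant macrophage genes weigh most in the summed level of the list. Lyz2 averaged 516 CPM with epinephrine and 534 CPM with vehicle, whereas Cd3e averaged 0.978 CPM with epinephrine and 1.28 CPM with vehicle. The sum ranged from 944 to 1812 CPM in epinephrine libraries and from 817 to 1622 CPM in vehicle libraries. Cd52, a leukocyte surface protein that is also made in the epididymis, was set aside in a second sum, which was 614 CPM in epinephrine 1, 843 CPM in epinephrine 2 and 694 CPM in vehicle 2, the lowest 3 of the 12. The summed CPM of Psmb8, Psmb9 and Psmb10 was lowest in the same 3 libraries, at 52.7 CPM in epinephrine 1, 73.5 CPM in epinephrine 2 and 69.3 CPM in vehicle 2. In the other libraries, the leukocyte sum without Cd52 was 1430 ± 266 CPM with epinephrine (SD, n = 4) and 1388 ± 54.9 CPM with vehicle (SD, n = 5), while the sum of the 3 immunoproteasome genes was 97.1 ± 11.8 CPM with epinephrine and 124 ± 7.34 CPM with vehicle. The part of leukocyte content in the result was not tested.

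**Figure D4:**
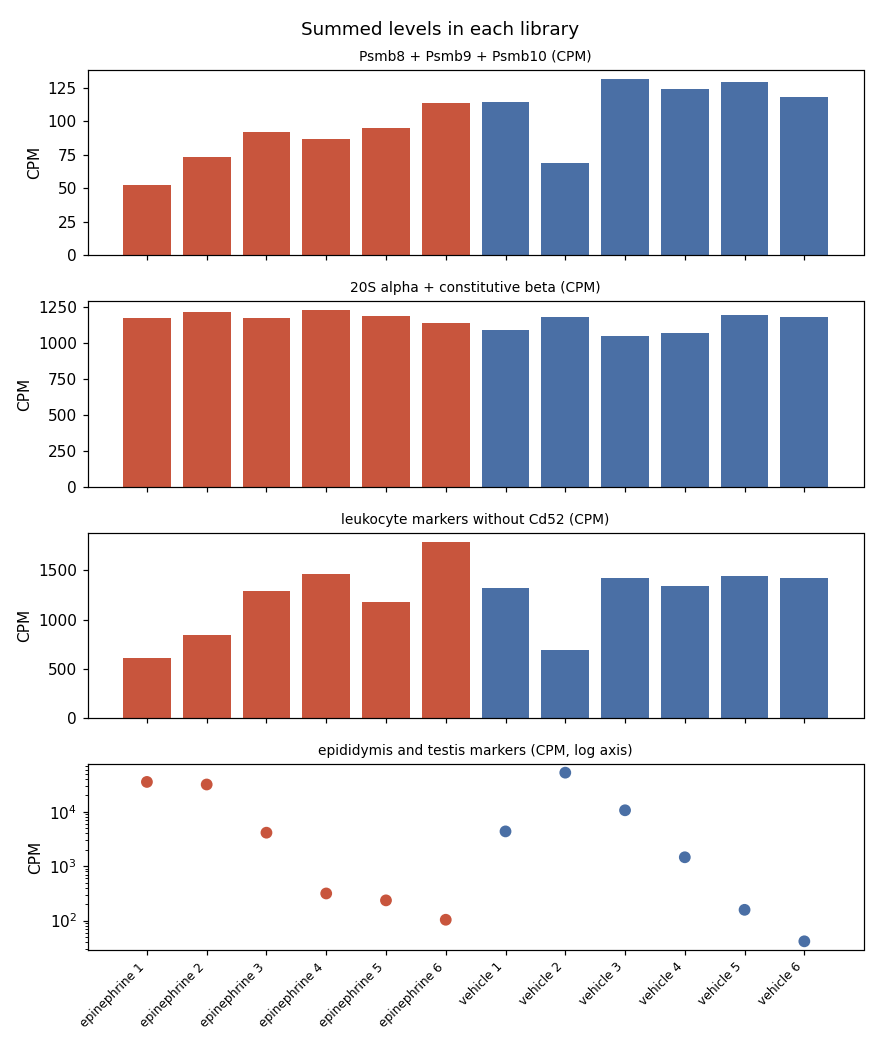
Summed CPM in each library, the 6 epinephrine libraries left and the 6 vehicle libraries right, for the immunoproteasome genes, the 20S alpha and constitutive beta genes, the leukocyte markers without Cd52 and, on a log axis, the epididymis and testis markers. Epinephrine 1, epinephrine 2 and vehicle 2 are lowest in immunoproteasome and leukocyte sums and highest in epididymis and testis markers, while the core sum is nearly level.

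The same 3 libraries differed from the rest in some other members too, and in the same direction in both groups for the genes given here. Psmd10, the assembly chaperone also called gankyrin, was higher in them by 0.89 (log2) among epinephrine libraries and by 1.00 among vehicle libraries. It reached 37.6 CPM in epinephrine 1 and 36.6 CPM in vehicle 2, and its difference between treatments was 0.05 with a wide interval of -0.55 to 0.65 (log2). Psma7 was higher in them by 0.42 and 0.43, and Psme1 was lower, with differences of -0.46 among epinephrine libraries and -0.51 among vehicle libraries. Of the 48 members, 38 had the same sign in both groups, some with differences near 0. The share of all tested genes with the same sign was not computed, so this count is not a result about proteasome genes. Both treatments held such libraries, 2 with epinephrine and 1 with vehicle.

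The ATPases of the 19S base, which unfold the substrate, gave 0 of 6 past the test and log2 fold changes from -0.0027 to 0.15. Psmc4 had 68.9, 78.9 and 83.0 CPM in epinephrine libraries against 62.2, 67.3 and 81.5 CPM in vehicle libraries, a log2 fold change of 0.15 (SE 0.08, edgeR adjusted p = 0.396). Psmc6 had 46.3, 55.1 and 59.5 CPM in epinephrine libraries against 44.9, 50.4 and 53.0 CPM in vehicle libraries, a log2 fold change of 0.13 (SE 0.06, edgeR adjusted p = 0.363). In both genes the groups overlapped. Psmc1, Psmc2, Psmc3 and Psmc5 lay between -0.0027 and 0.08. The non-ATPases of the base that fit the symbol rule are the scaffolds Psmd1 and Psmd2 and the ubiquitin receptor Psmd4. None of the 3 passed, with log2 fold changes of 0.12 for Psmd1 (149, 168 and 185 CPM in epinephrine libraries, 140, 150 and 177 CPM in vehicle libraries) and 0.03 for Psmd2 and Psmd4.

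The lid, which removes ubiquitin from the substrate, held 2 of the 4 members with an unadjusted p under 0.05. All 8 lid genes that fit the symbol rule had positive log2 fold changes, from 0.03 to 0.21, and 0 passed. Psmd8, a structural lid subunit, ranged over 126, 144 and 158 CPM in epinephrine libraries and 112, 121 and 142 CPM in vehicle libraries. The epinephrine libraries were mostly higher, but vehicle 5 and vehicle 6 lay within their range. Its log2 fold change was 0.21 (SE 0.08, 95% interval 0.04 to 0.39, edgeR adjusted p = 0.166). Psmd12, also structural, had 68.0, 70.6 and 79.0 CPM in epinephrine libraries and 60.2, 65.0 and 70.6 CPM in vehicle libraries, with a log2 fold change of 0.14 (SE 0.06, edgeR adjusted p = 0.267). Psmd14, the enzyme that cuts the ubiquitin chain off the substrate, had 51.0, 63.4 and 70.4 CPM in epinephrine libraries and 49.9, 53.8 and 62.4 CPM in vehicle libraries, with a log2 fold change of 0.18 (SE 0.08, edgeR adjusted p = 0.291). Psmd13 was even, at 69.1, 75.1 and 76.3 CPM in epinephrine libraries and 64.8, 70.5 and 72.3 CPM in vehicle libraries, a log2 fold change of 0.09 (SE 0.04, edgeR adjusted p = 0.376). Psmd11, the subunit named above as a target of cyclic AMP signalling, had a log2 fold change of 0.07 (95% interval -0.14 to 0.28). With the epididymal score of each library as a covariate, 2 members were higher (Psmd8, edgeR adjusted p = 0.0143, and Psmd14, adjusted p = 0.0422) and 1 was lower (Psmg3), where 4.32% of all tested genes were higher and 6.21% lower.

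The symbol rule gave 31 tested genes of the 20S core and the 19S cap, immunoproteasome left out. Of these 31, 30 had a log2 fold change above 0 and above the median of all genes. The median of the 31 was 0.05. The sign against 0 depended on the scaling, since 31, 21 and 8 of the 31 were positive under RLE, upper quartile and library-size scaling, while 30 of the 31 stood above the median of all genes under each of these. With library size alone that median shifted to -0.11. The genes share libraries and scaling and are not independent, and no interval among the 31 went beyond 1.5-fold in either direction.

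The activators and the inhibitor bind the ends of the core. Psme1 and Psme2 form the activator PA28, which interferon-gamma induces, and neither passed. Psme1 had 56.2, 88.5 and 99.5 CPM in epinephrine libraries and 67.9, 93.1 and 107 CPM in vehicle libraries. Psme2 had 47.4, 60.3 and 63.1 CPM in epinephrine libraries and 47.4, 64.1 and 69.2 CPM in vehicle libraries. Their log2 fold changes were -0.11 (SE 0.14, edgeR adjusted p = 0.821) and -0.10 (SE 0.10, adjusted p = 0.741), and the groups overlapped over most of their range. Psme3, the nuclear activator, had a log2 fold change of 0.11 (SE 0.06, edgeR adjusted p = 0.412). Psme4, also a nuclear activator and abundant in testis, had 86.2, 108 and 124 CPM in epinephrine libraries and 74.3, 89.7 and 113 CPM in vehicle libraries, a log2 fold change of 0.20 (SE 0.13, edgeR adjusted p = 0.514). Psmf1, an inhibitor of the core, had a log2 fold change of 0.01 (95% interval -0.11 to 0.14).

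Of the 7 assembly chaperones, 1 fell, 0 rose, and 6 of the 7 log2 fold changes were negative. Psmg3, which works with Psmg4 in the assembly of the alpha ring, ranged over 5.34, 5.64 and 5.91 CPM in epinephrine libraries and 6.00, 7.11 and 7.95 CPM in vehicle libraries. Every epinephrine library was below every vehicle library, with vehicle 2 the nearest to the epinephrine group. Its log2 fold change was -0.33 (SE 0.09, 95% interval -0.52 to -0.14, edgeR adjusted p = 0.0470). With the replicate number as a block the adjusted p of Psmg3 was 0.125, so that 0 members were higher and 0 lower, where 2.38% and 2.26% of all tested genes were. The call was kept in 10 of 25 other settings, with log2 fold changes from -0.43 to -0.29 in the 24 fitted to counts. In the deposited variance-stabilized values, a scale that is compressed at low counts, the difference between the groups was -0.15. Psmg3 shares 9.68% of its exonic bases with Gm26938 on the same strand in GENCODE M21, so its counts are uncertain to that extent.

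Its partner Psmg4 had 5.76, 7.61 and 8.41 CPM in epinephrine libraries and 7.55, 8.37 and 9.45 CPM in vehicle libraries, with a log2 fold change of -0.18 (SE 0.10, edgeR adjusted p = 0.454). Psmg1 and Psmg2 also act as a pair in the assembly of the alpha ring. Their log2 fold changes were -0.13 (SE 0.10, edgeR adjusted p = 0.628) and -0.16 (SE 0.08, adjusted p = 0.371). The groups of these 3 genes overlapped. The chaperones of the 19S base, Psmd5, Psmd9 and Psmd10, had log2 fold changes of -0.06, -0.0012 and 0.05. The 2 genes that are not subunits did not pass either: Psmc3ip, which acts in meiotic recombination, was low at 1.45 to 2.12 CPM in epinephrine libraries and 0.885 to 2.12 CPM in vehicle libraries (log2 fold change 0.38, SE 0.21), and Psme3ip1, which binds Psme3, had a log2 fold change of -0.06 (SE 0.05).

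Some genes work with the proteasome but carry other names. Of 23 partners tested, 2 were higher and 0 lower, where 2.65% of all tested genes were higher and 3.58% lower, and their median log2 fold change was 0.07, against -0.00059 for all tested genes. Zfand5, a zinc finger protein that binds the proteasome and stimulates it, ranged over 176, 222 and 247 CPM in epinephrine libraries and 95.04, 105 and 118 CPM in vehicle libraries. Zfand2a, a heat shock and arsenite induced protein that binds the 19S cap, ranged over 49.2, 63.0 and 74.9 CPM in epinephrine libraries and 29.6, 31.5 and 37.1 CPM in vehicle libraries. In both genes every epinephrine library was above every vehicle library. Zfand5 rose 2.07-fold (log2 1.05, SE 0.09, edgeR adjusted p = 9.1e-05) and Zfand2a rose 1.95-fold (log2 0.97, SE 0.11, edgeR adjusted p = 0.00052). Ddi2, the protease that activates the transcription factor Nfe2l1, had a log2 fold change of 0.36 (SE 0.12, edgeR adjusted p = 0.138), the shuttle factor Rad23b had 0.16 (SE 0.06, adjusted p = 0.135) and the shuttle factor Ubqln1 had 0.27 (SE 0.11, adjusted p = 0.199). Paaf1 was not analysed here.

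**Figure D5:**
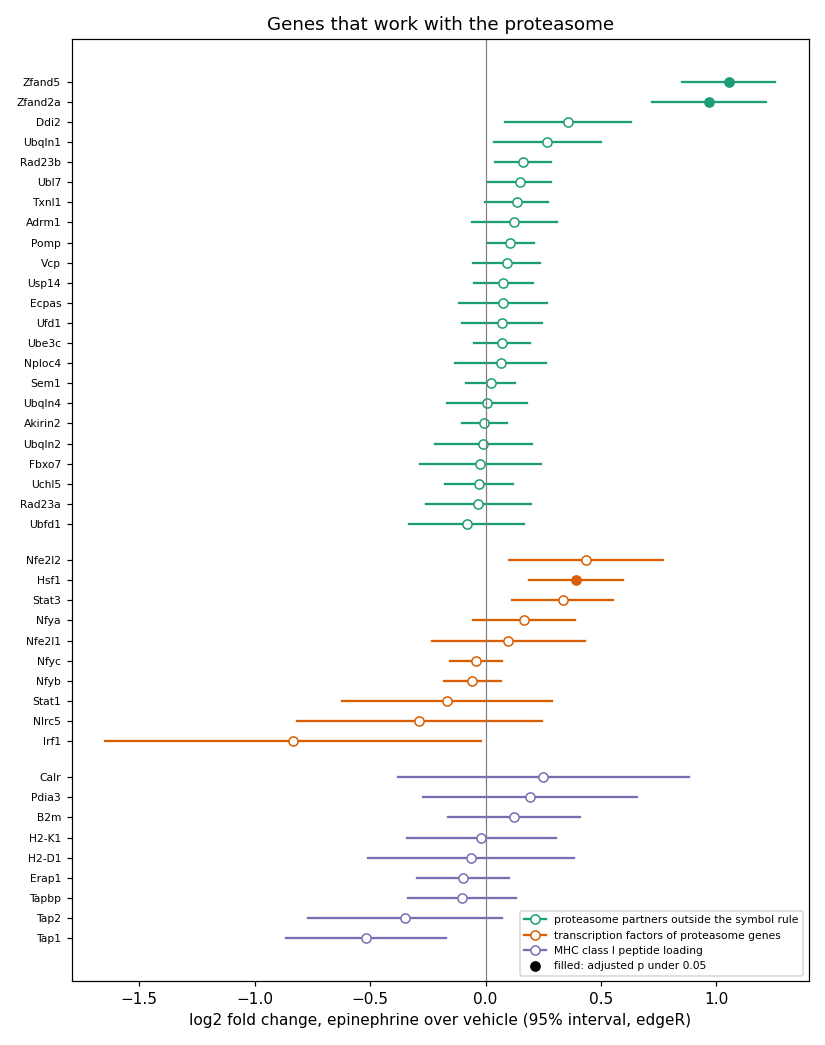
Log2 fold change, epinephrine over vehicle, with its 95% interval from edgeR, for proteasome partners, transcription factors and MHC class I loading genes. Filled points mark Zfand5, Zfand2a and Hsf1, all right of 0, and the MHC class I loading genes spread on both sides of 0 with Tap1 farthest to the left.

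Ubb, a polyubiquitin gene, had 345, 484 and 633 CPM in epinephrine libraries and 289, 409 and 419 CPM in vehicle libraries, with a log2 fold change of 0.38 (SE 0.16, edgeR adjusted p = 0.234), and 0.46 (adjusted p = 0.0188) without the 3 libraries with much Gpx5. The groups overlapped. Uba1, the main ubiquitin-activating enzyme, had a log2 fold change of 0.07 (SE 0.07, edgeR adjusted p = 0.732).

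Of 10 transcription factors known to act on proteasome genes, 1 was higher and 0 lower, against the same 2.65% and 3.58% of all tested genes. Hsf1, the main factor of the heat shock response, had 43.3, 58.0 and 62.8 CPM in epinephrine libraries and 38.1, 42.9 and 47.7 CPM in vehicle libraries, and rose 1.31-fold (log2 0.39, SE 0.09, edgeR adjusted p = 0.0285). The groups overlapped, and the call on Hsf1 was kept in 16 of 25 other settings and lost under upper quartile and library-size scaling. Stat3 had a log2 fold change of 0.33 (SE 0.10, edgeR adjusted p = 0.0772) and Nfe2l2, the antioxidant response factor, had 0.44 (SE 0.15, adjusted p = 0.141). Without the 3 libraries with much Gpx5 both passed, with edgeR adjusted p-values of 0.0103 and 0.00692. In that fit 4.87% of all tested genes were higher and 6.37% lower. Nfya had a log2 fold change of 0.17 (SE 0.10, edgeR adjusted p = 0.472), and 0.24 (adjusted p = 0.0206) without these libraries. Without them Nfyb was at -0.09 (adjusted p = 0.420) and Nfyc at -0.05 (adjusted p = 0.659). Irf1, which drives immunoproteasome genes after interferon-gamma, had 42.7, 56.5 and 138 CPM in epinephrine libraries and 49.95, 125 and 180 CPM in vehicle libraries, with a log2 fold change of -0.83 (SE 0.37, edgeR adjusted p = 0.273). Nfe2l1, the factor that raises all proteasome subunits when the particle is inhibited, had a log2 fold change of 0.10 (95% interval -0.23 to 0.43, edgeR adjusted p = 0.867).

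The 9 genes of MHC class I peptide loading, which receive the peptides that the immunoproteasome makes, gave 0 past the test and a median log2 fold change of -0.06. Tap1, a subunit of the peptide transporter, had 26.2, 37.0 and 46.4 CPM in epinephrine libraries and 33.4, 53.1 and 60.7 CPM in vehicle libraries, with a log2 fold change of -0.52 (SE 0.16, edgeR adjusted p = 0.0879), and -0.52 (adjusted p = 0.0174) without the 3 libraries with much Gpx5. Tap2, the other subunit, had a log2 fold change of -0.35 (SE 0.19, edgeR adjusted p = 0.406). The groups overlapped in both. Tap1 and Psmb9 lie head to head on chromosome 17 and share exonic bases, 5.79% of those of Psmb9, and the strand setting of the counting is not given in the sources used here, so their counts may hold some reads of each other. Erap1 had a log2 fold change of -0.10 (edgeR adjusted p = 0.710), and B2m, the light chain of MHC class I, had 0.12 (edgeR adjusted p = 0.765).

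Other members overlap neighbours on the opposite strand and are uncertain in the same way: Psmd9 shares 25.5% of its exonic bases with Gm26745, Psmc3ip 21.2% with Mlx, Psmb8 14.7% with Gm20496, Psmb7 11.8% with Nek6, Psmd13 10.1% with Sirt3 and Psmc3 8.25% with Slc39a13. On the same strand, Psmb5 shares 12.1% of its exonic bases with Mir686 and Psmd1 4.14% with Gm21972. The counts of Psmb5 and Psmd1 are uncertain to that extent whatever the strand setting.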

How the data were processed

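Libraries were prepared from fat pad RNA of 12 mice by a SMARTER mRNA-Seq protocol, per the labels. FastQC, cutadapt, HISAT2, featureCounts, DESeq2 and mm10 are named in the submitters' processing notes, with no versions. Strand setting and annotation: not given in the sources used here. The authors deposited raw whole-number counts for 27179 genes, with gene lengths in bases, and VST (variance-stabilized, log2-like) values for 20185 genes, which served only as an alternative. The titles gave each library its group and replicate number, and the mice are separate animals per the labels.

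Genes passed filterByExpr (minimum count 10, minimum total 15), and 16175 were fitted with TMM factors by edgeR's quasi-likelihood F test (edgeR 4.0.16, limma 3.58.1, R 4.3.3) over the 12 libraries, with Benjamini-Hochberg adjustment over all of them and a threshold of 0.05. A standard error is the log2 fold change over the square root of F, and 95% intervals come from the t distribution. RPKM are TMM-normalized CPM over the deposited gene length. No 2 of 66 library pairs were identical. Positions and promoters come from RefSeq (GRCm38.p6), shared exons from GENCODE M21.

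Libraries of equal number in their titles deviated from their group means together (correlations across genes of 0.262 to 0.799 in 6 pairs). Libraries of unequal number were not compared in this way, so these values do not show that the numbers mark pairs. The main fit has no block, since no source states one, and the block is an alternative. Also tried were scaling by RLE, by the upper quartile and by library size, no filter, mean CPM from 1 upward, DESeq2 1.42.0, limma-voom with weights, limma on VST values, an epididymal covariate (mean log2 CPM, prior count 1, of 20 epididymis and testis markers), removal of libraries with Gpx5 above 0.5% of counts, numbers 1 to 3 or 4 to 6 alone, a 0.01 threshold, and removal of single libraries. Genes with full values were those past the threshold, up to 4 of smallest p per role and the catalytic pairs Psmb5 to Psmb10; from every other list, those past the threshold and up to 3 more. Members, lists and alternatives were chosen with earlier results of these data known. Psme2b was not analysed here, and some results of the other lists are not reported here.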

Additional observations from a re-analysis of the deposited data

Results flagged for a closer look

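Each tested member was looked at in each group of 6 libraries, 96 groups in all, for a library whose gap to its nearest neighbour was large against the group's range (Dixon's 95% criterion). Chance flags about 1 in 20 such groups, and 6 were found, 1 in epinephrine 1 and 5 in vehicle 2. In epinephrine 1, Psmb4 was high at 123 CPM (others of its group 110 to 114 CPM). In vehicle 2, Psmb8 was low at 29.7 CPM (other vehicle libraries 49.1 to 56.0 CPM), and so was Psmb10 at 24.0 CPM (others 41.1 to 47.3 CPM). In the same library Psmb4 was high at 140 CPM (others 101 to 106 CPM), Psmb5 at 62.0 CPM (others 42.0 to 49.3 CPM) and Psmd9 at 29.2 CPM (others 21.1 to 23.2 CPM). Gpx5 took 1.09% of counts in epinephrine 1 and 1.98% in vehicle 2, the highest 2 shares of the 12.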

How the results depend on the processing

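The count of members higher with epinephrine was 0 as reported. With DESeq2 it was 2 (Psmd8, Psmd13), where 4.7% of all genes were higher. With limma-voom it was 4 (Psma1, Psmd8, Psmd12, Psmd14), where 6.34% of all genes were. With the epididymal covariate it was 2 (Psmd8, Psmd14), where 4.32% of all genes were, and every other setting run gave 0. The count lower, 1 as reported, was 3 with limma-voom, where 9.29% of all genes were lower. It was also 3 without the libraries with much Gpx5, where 6.37% were (Psmb9, Psmb10 and Psmg3 in both fits). It was 0 with RLE scaling (2.76% of all genes), no filter (2.03%), the replicate block (2.26%), numbers 1 to 3 alone (0%) and a threshold of 0.01. Leaving out single libraries gave 0 to 2. The count was 1 without epinephrine 1 (Psmg3), where 4.9% of all genes were lower. It was 2 without vehicle 2 (Psmb10 and Psmg3), where 3.61% were, and 0 on leaving out any of the other 10. With the replicate number as a block, the median log2 fold change of members was 0.04 and the edgeR adjusted p of Psmg3 was 0.125. That median, 0.04 as reported, was -0.071 with library size alone, where the median of all genes was -0.11. Of 825 values of 33 named genes under the alternatives, 796 stayed on their side of the threshold, 14 passed it newly, 15 lost it (all Psmg3) and 0 reversed. Among the 796, 28 values in 12 genes changed sign with unadjusted p-values of 0.05 or more on both sides. The cause of these changes was not tested. Psma8 and Psmb11 had too few reads to test at this depth.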
